A study of Glycine max with 24 samples.

Results

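GA2OX2 is a soybean gene for a gibberellin 2-oxidase, and it was represented by 1 probe set (gene ID 100779525) of the 75990 on the Affymetrix Soybean Gene 1.1 ST array. A probe set is a group of short DNA probes whose signals are combined into 1 value. Members were all probe sets whose only gene symbol was GA2OX2, and no second one was found. The gene was chosen by its measured log2 intensities over the 8 groups of arrays, so its levels and differences are given as a description, with no test. The other gibberellin genes were tested.

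The arrays held RNA from roots and leaves of soybean (Glycine max) seedlings of the accessions CD (Chundou, low-P tolerant) and YH (Yunhefengwodou, low-P sensitive). Seedlings stood for 10 days in hydroponic Hoagland solution at 0.5 of its full strength. Normal P was a supply of 0.5 mmol/L and low P one of 0.005 mmol/L, which gave 8 groups of 3 biological replicates and 24 arrays in all. Each class of tolerance was 1 accession, so tolerance and accession cannot be told apart. In whole organs, fewer cells of a type and less RNA per cell cannot be told apart either.

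Gibberellins are plant hormones that promote growth of stems, leaves and roots. GA20OX and GA3OX enzymes carry out the last steps towards the active forms, and 2-oxidases such as GA2OX2 add a hydroxyl group at carbon 2, which inactivates active forms or their precursors. Active gibberellin binds the receptor GID1, and this leads to breakdown of the DELLA proteins, repressors of the GAI type. In Arabidopsis, phosphate starvation is known to lower active gibberellin and to let DELLA proteins accumulate.

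GA2OX2 was read high in roots and low in leaves, and its highest values stood in CD roots under low P. All levels are log2 of the deposited intensity. In CD roots the low P arrays read 7.28, 6.79 and 6.69 (mean 6.92 ± 0.315, SD, n = 3) and the normal P arrays 5.20, 5.14 and 5.31 (5.22 ± 0.0863). In YH roots the normal P arrays read 5.28, 6.34 and 5.64 (5.75 ± 0.543) and the low P arrays 5.32, 5.25 and 5.45 (5.34 ± 0.101). The CD low P arrays thus all lay above the other 9 root arrays, and 1 YH normal P array, replicate 2, stood above the rest of its group.

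In CD leaves GA2OX2 read 2.11, 2.47 and 2.07 under normal P (2.22 ± 0.222) and 2.27, 2.21 and 2.41 under low P (2.29 ± 0.106). In YH leaves it read 2.40, 2.89 and 2.19 under normal P (2.49 ± 0.360) and 2.07, 2.11 and 2.39 under low P (2.19 ± 0.177). The 4 leaf groups overlapped with one another. The median over all probe sets lay between 2.83 and 2.91 on every array, close to or above these leaf values, and no detection calls were used here, so it cannot be told whether the leaf values exceeded background.

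**Figure D1:**
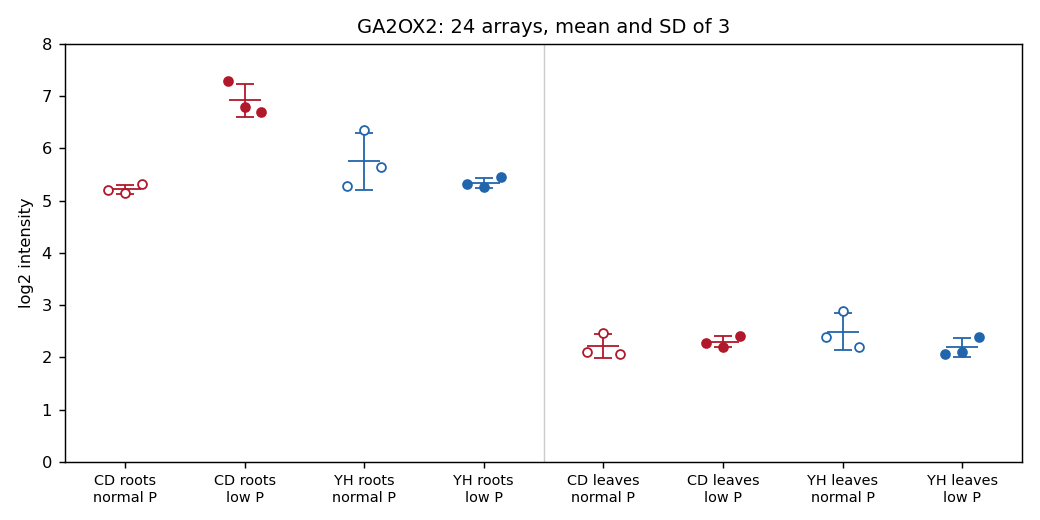
GA2OX2 log2 intensity (vertical axis) on each of 24 arrays by group, CD in red and YH in blue, low P filled and normal P open; bars give the mean and SD of 3 arrays. The CD root low P arrays lie at 6.69 to 7.28, the other root arrays at 5.14 to 6.34 and the leaf arrays at 2.07 to 2.89.

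Ordered by mean, the groups ran from CD roots low P (6.92) through YH roots normal P (5.75), YH roots low P (5.34) and CD roots normal P (5.22) to the leaves. The step from the first to the second group was 1.17, with no overlap between arrays. The next steps, 0.41 and 0.12, joined groups that overlapped. The step from the lowest root group to the highest leaf group was 2.73 without overlap, and the last steps, 0.20, 0.08 and 0.02, were between overlapping groups. The SD of arrays within groups was 0.271 in the limma fit, which draws variances towards a value shared by all probe sets. The order among the 3 lower root groups and among the 4 leaf groups was thus not separated by the replicate spread.

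Low P against normal P was compared within each accession and organ, which asks how the supply of phosphate moved the gene. In CD roots GA2OX2 was higher by 1.70 on the log2 scale (SE 0.221), a 3.26-fold difference, and each low P array exceeded each normal P array. Such a separation upward occurred in 5.35% of all probe sets in this comparison. In YH roots the difference was -0.41 (SE 0.221), with overlapping arrays. The YH value rested on replicate 2 of normal P, the array at 6.34, and was -0.12 without it. In leaves the differences were 0.079 in CD and -0.30 in YH (SE 0.221 each), both with overlapping arrays. When each array was left out in turn, the CD root difference ranged from 1.52 to 1.82, the CD leaf difference from 0.0058 to 0.207 and the YH leaf difference from -0.45 to -0.10.

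The response of CD roots exceeded that of YH roots by 2.12 (SE 0.313), or 4.34-fold, with a range of 1.82 to 2.36 when each array was left out. The corresponding difference in leaves was 0.38 (SE 0.313). Within CD, the response in roots exceeded that in leaves by 1.63, and within YH the same difference was -0.11 (SE 0.313 each). CD roots under low P were therefore the only group of the 8 that stood apart within its organ.

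Root and leaf markers were read beside this result. Of 8 leaf (photosynthesis) markers 7 were lower in CD roots than in CD leaves at each P level and 8 in YH, and of 20 root markers 9 to 11 were higher in roots, with 2 or 3 lower. Of all probe sets 14.7% and 15.7% were called between organs in CD under normal and low P, and 16.9% and 16.7% in YH. The summed intensity of the leaf markers was 581 to 599 in CD roots under normal P and 519 to 588 under low P, and 1 of the 8, RCAALPHA of the rubisco activase family, was lower (log2 difference -1.07). The sum of the root markers was 1333 to 1570 under normal P and 2018 to 2552 under low P, without overlap. Their median log2 difference was 0.10, with members from -0.83 (IRT, an iron transporter) to 1.74 (IFS2, an isoflavone synthase). None of the 20 was called, against 7 with an unadjusted p under 0.05, and IFS2 read 8.10 under normal P and 9.84 under low P (adjusted p = 0.0639, limma). In YH roots the root marker sums overlapped, at 1390 to 1531 and 1334 to 1708. The root list also held PHT1 phosphate transporters, which recur among the phosphate starvation genes below. The part of the leaf and root markers in the GA2OX2 result was not tested.

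Phosphate starvation genes gave a check of the treatment. A gene was called when limma gave an adjusted p under 0.05 (Benjamini-Hochberg over all probe sets) and the change was at least 2-fold. In CD roots 2 of 61 such probe sets were called, both higher, where 0.420% of all probe sets were called. They were SPX3 (log2 difference 1.57, SE 0.181, adjusted p = 6.65e-05) and SPX8 (1.10, SE 0.224, adjusted p = 0.0214), both of the SPX family of phosphate sensing proteins. In YH roots, CD leaves and YH leaves none of the 61 was called, with 2, 1 and 7 at an unadjusted p under 0.05. Of all probe sets 0.00132%, 0.00395% and 0.107% were called there, so 0 of 61 lies near the background. In YH roots SPX3 gave 0.52 (SE 0.181) and SPX8 gave -0.073 (SE 0.224), neither called.

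CD was next compared with YH at each P level. In roots under normal P, GA2OX2 was 0.53 lower in CD on the log2 scale, with overlapping arrays, and without YH replicate 2 the difference was -0.24. In roots under low P it was 1.58 higher in CD (3.0-fold, SE 0.221), and the arrays of CD all lay above those of YH, as did those of 14.5% of all probe sets. In leaves the differences were -0.28 under normal P and 0.10 under low P, both with overlap. The accessions thus parted only in roots under low P, with the order opposite to that of the normal P means.

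Roots exceeded leaves on every array of each pair of groups. The log2 differences of GA2OX2 were 3.0 in CD under normal P (8.03-fold), 4.63 in CD under low P (24.8-fold), 3.26 in YH under normal P (9.58-fold) and 3.15 in YH under low P (8.87-fold), with an SE of 0.221. In the same order, 20.1%, 21.5%, 22.4% and 21.5% of all probe sets had every root array above every leaf array. These differences depend on the low leaf values: with 8 units added to each intensity before the log they became 1.84, 3.33, 2.18 and 1.95.

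The array carried 8 further gibberellin 2-oxidases with a probe set of their own: GA2OX1, GA2OX3, GA2OX4, GA2OX5, GA2OX6, GA2OX7, GA2OX8 and GA2OX10. None was called in the low P comparisons of CD roots, CD leaves, YH roots or YH leaves, where 0.420%, 0.00395%, 0.00132% and 0.107% of all probe sets were called. At an unadjusted p under 0.05 there were 2, 1, 0 and 1. Their median log2 difference in CD roots was 0.29, with a median of -0.014 over all probe sets, and in YH roots it was -0.15 with 0.0038 over all.

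**Figure D2:**
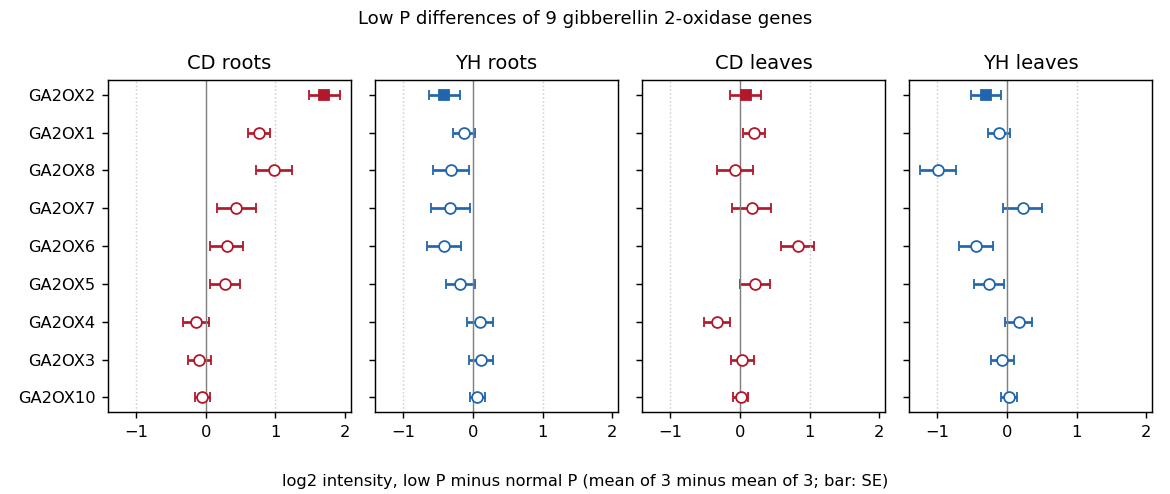
Log2 intensity under low P minus normal P (horizontal axis) of 9 gibberellin 2-oxidase genes in 4 settings, with bars for the SE; squares mark GA2OX2, which was not tested, and dotted lines a 2-fold change. GA2OX2 lies at 1.70 in CD roots and between -0.41 and 0.079 elsewhere, and no open circle passed the test.

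GA2OX1 and GA2OX8 came nearest to GA2OX2 in the CD root comparison. GA2OX1 read 6.17, 5.77 and 5.91 in CD roots under normal P and 6.88, 6.58 and 6.67 under low P, a separation without overlap. Its difference of 0.77 (SE 0.156, adjusted p = 0.0222, limma) was under 2-fold and so was not called, and its adjusted p was 0.207 in a fit of these groups alone and 0.065 with a replicate block. In YH roots it read 6.39, 6.76 and 6.68 under normal P and 6.50, 6.35 and 6.60 under low P, with a difference of -0.13. The difference between the accessions' responses was 0.89 (SE 0.221, adjusted p = 0.196, limma), which did not pass.

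GA2OX8 read 4.69, 4.62 and 4.0 in CD roots under normal P and 5.51, 5.41 and 5.32 under low P, again without overlap. The difference of 0.98 (SE 0.259, adjusted p = 0.139, limma) was not called, nor was its difference of responses between CD and YH roots (1.29, SE 0.366, adjusted p = 0.429). In YH leaves it read 4.18, 5.39 and 4.43 under normal P and 4.10, 3.15 and 3.78 under low P (-0.99, adjusted p = 0.168). Under low P its leaf level was 1.10 higher in CD than in YH (SE 0.259, adjusted p = 0.00521, limma), which was called, although without YH leaves low P replicate 2 the difference was 0.838 and under 2-fold, and with 8 units added to each intensity it was 0.76.

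Between the accessions, 2 of the 8 2-oxidases were called lower in CD roots under normal P, 1 was called lower in roots under low P, 1 higher and 1 lower in leaves under normal P, and 2 higher and 1 lower in leaves under low P. Of all probe sets 3.01%, 3.39%, 8.22% and 6.92% were called in these comparisons. GA2OX6 was the gene lower in CD in all 4. Its arrays in CD roots read 3.01, 3.0 and 2.17 under normal P and 3.08, 3.03 and 2.97 under low P, and in YH roots 4.64, 4.79 and 4.62 and then 4.60, 3.81 and 4.42. In leaves CD read 1.46, 1.19 and 1.67 under normal P and 2.61, 2.06 and 2.15 under low P, with YH at 4.06, 4.08 and 4.10 and then 4.17, 3.28 and 3.46. No CD array reached a YH array of the same organ.

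The GA2OX6 differences, CD minus YH, were -1.96 in roots under normal P, -1.25 in roots under low P, -2.64 in leaves under normal P and -1.36 in leaves under low P (SE 0.242, adjusted p = 1.63e-05, 0.00207, 1.22e-07 and 0.000436, limma). With 8 units added to each intensity the 2 low P differences were -0.77 in roots and -0.68 in leaves and were not called. GA2OX7, listed next to GA2OX6 with 0 genes between them in the RefSeq table of Glycine_max_v4.0, was lower in CD roots under normal P (-1.46, SE 0.279, adjusted p = 0.00181). Its differences in the other settings ran from -0.94 to -0.70 and were not called, although in leaves under low P the call was made without CD replicate 1 (-1.13), YH replicate 2 (-1.06) or YH replicate 3 (-1.01). How far the probes of such neighbouring family members share signal was not tested.

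GA2OX4 had the opposite pattern to GA2OX2 in CD, with its signal in leaves. In CD leaves it read 5.47, 4.79 and 5.07 under normal P and 5.28, 4.76 and 4.30 under low P, and in YH leaves 2.05, 2.19 and 2.08 and then 2.44, 2.33 and 2.06. The CD excess in leaves was 3.0 under normal P and 2.51 under low P (SE 0.188, adjusted p = 4.83e-10 and 7.95e-09, limma). Roots of both accessions read 1.61 to 1.95 on all arrays. Its low P difference in CD leaves, -0.33, was not called.

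**Figure D3:**
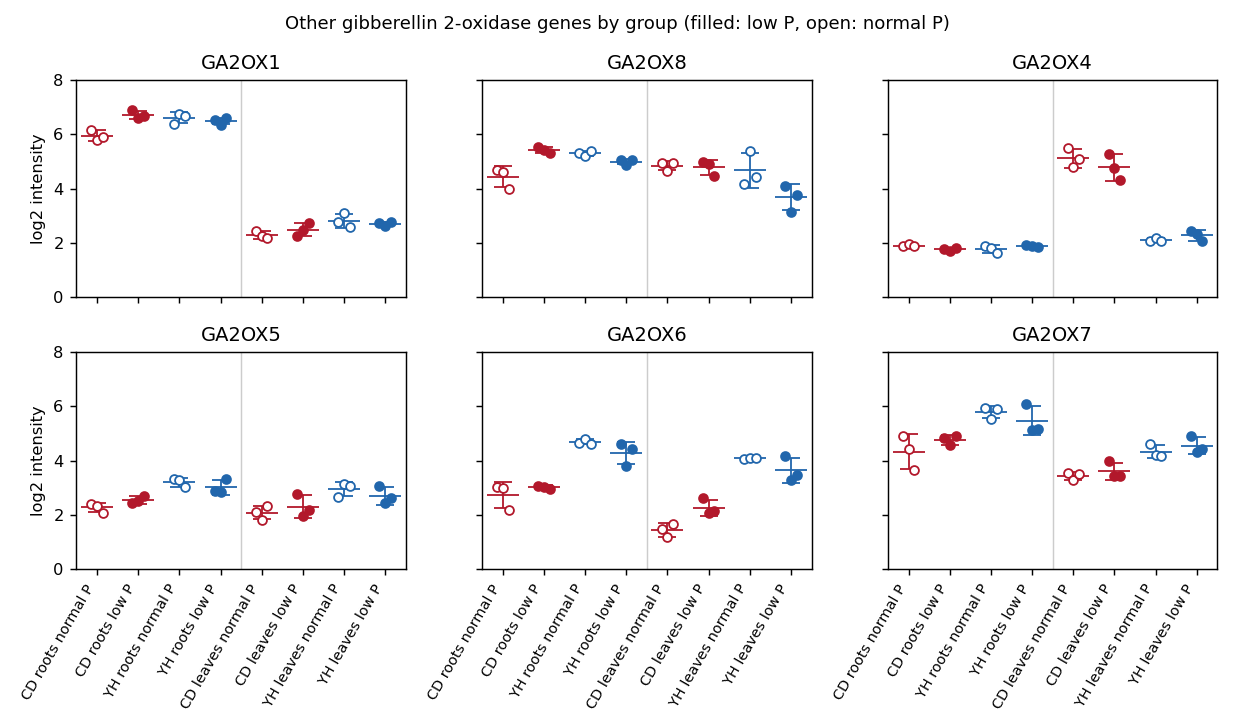
Log2 intensity (vertical axis) of 6 other gibberellin 2-oxidase genes on 24 arrays by group, CD red and YH blue, low P filled and normal P open, with mean and SD of 3; heights are not comparable between genes. GA2OX1 reads 5.77 to 6.88 in roots, GA2OX4 reads 4.30 to 5.47 in CD leaves only, and GA2OX6 is lower in CD than in YH in both organs.

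The root-to-leaf contrast of GA2OX2 was shared by GA2OX1, whose root excess was 3.66 in CD and 3.79 in YH under normal P and 4.22 and 3.78 under low P (SE 0.156, called in all 4). Among the 8, a second root excess was called in each comparison: GA2OX6 in CD under normal P (1.29), GA2OX7 in CD under low P (1.15), GA2OX7 in YH under normal P (1.46) and GA2OX8 in YH under low P (1.31). With 8 units added to each intensity 3 of these 4 were not called, GA2OX6 at 0.46, GA2OX7 in CD at 0.79 and GA2OX8 at 0.92. Of all probe sets 14.7%, 15.7%, 16.9% and 16.7% were called between organs, in CD under normal and low P and then in YH. GA2OX4 was lower in CD roots than in CD leaves by -3.21 and -3.02. GA2OX3, GA2OX5 and GA2OX10 were called in none of the 16 comparisons and interaction terms, although GA2OX5 was -0.92 in CD against YH roots under normal P with an adjusted p of 0.00868 from limma, and was called there without YH replicate 3 (-1.01).

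On the synthesis side, 11 probe sets of GA20OX and GA3OX genes were read, and none was called in any of the 4 low P comparisons (1, 0, 0 and 1 at an unadjusted p under 0.05, in CD roots, CD leaves, YH roots and YH leaves). Of all probe sets 0.420%, 0.00395%, 0.00132% and 0.107% were called there, so 0 of 11 lies near the background. GA3OX3, of the family that makes the active forms, was root-high like GA2OX2, by 4.13 and 4.94 in CD and by 1.87 and 3.85 in YH, under normal and low P. Its low P difference in CD roots was 0.18 (SE 0.601), where GA2OX2 gave 1.70. In CD roots against leaves, 2 of the 11 were called higher and 2 lower under normal P, and 1 each under low P. In YH 1 was higher and 1 lower under normal P, and 1 was higher under low P. In the same order 14.7%, 15.7%, 16.9% and 16.7% of all probe sets were called. GA20OX3 was leaf-high in CD, at -1.65 and -2.63. It leaned the same way in YH, at -1.02 under normal P, which was called, and -0.91 under low P, which was not. With 8 units added to each intensity its normal P differences were -0.69 in CD and -0.38 in YH, and neither was called. The GAI1 probe sets (2), GAI2 and GID1C2, a receptor gene of the GID1 family, gave 0 called of 4 in each low P comparison, and none of the 4 reached an unadjusted p under 0.05 there. Their low P differences in CD roots lay between -0.090 and 0.072. Between organs 1 of the 4 was called: GID1C2 was higher in CD roots by 1.32 under normal P and 1.31 under low P. In YH none was called between organs.

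GASA genes code for small cysteine-rich peptides, many of which respond to gibberellin. In CD roots 1 of 28 was called, where 0.420% of all probe sets were called. This was GASA26, which read 3.13, 3.22 and 2.67 under normal P and 4.31, 4.13 and 5.14 under low P, a rise of 1.52 (SE 0.213, adjusted p = 0.000628, limma). It was the only one of the 51 other gibberellin probe sets called there, and it was not called in a fit of CD roots alone (adjusted p = 0.173) or with 8 units added to each intensity (difference 0.96). In YH roots GASA26 read 2.46 to 2.66 on all 6 arrays. Its difference of responses, 1.43 (SE 0.301, adjusted p = 0.0678, limma), did not pass, and none of the 51 passed in any of the 4 interaction terms, where 3, 4, 4 and 3 had an unadjusted p under 0.05. For comparison, 0.158%, 0.0237%, 0.121% and 0.00790% of all probe sets were called in these terms.

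**Figure D4:**
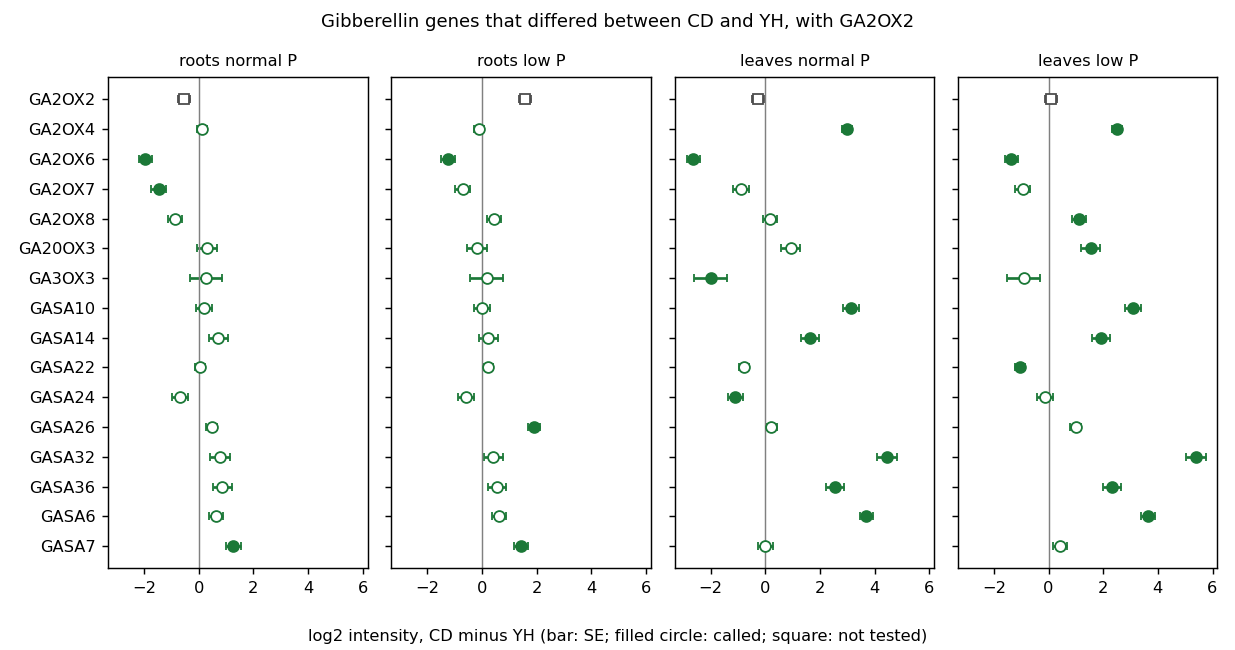
Log2 intensity, CD minus YH (horizontal axis), with SE, of GA2OX2 (square, not tested) and of the other gibberellin genes called in at least 1 of the 4 panels; filled circles were called. GA2OX2 moves from -0.53 in roots under normal P to 1.58 under low P, and GASA26 from 0.47 to 1.90, whereas GA2OX6 lies below 0 in all 4 panels.

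Genes with a like pattern were ranked by Pearson r with GA2OX2 among 26154 single-symbol probe sets that spanned at least 1 log2 unit. Over the 24 arrays the highest were LOC100811422 (r = 0.988), LOC100306237 (0.984), NSP1 (0.981), LOC100780074 (0.980) and LOC100781402 (0.979). NSP1 belongs to the GRAS family of transcription factors and is needed for nodulation signalling in legumes. The arrays share organ, accession and P level, and an r of at least 0.95 was found for 282 probe sets, so that r over all arrays mostly reflects the step between roots and leaves. GA2OX1 ranked 17 by r (0.974) and 5 by Spearman's rho (0.910). Of the 5 highest by r, 1 was also among the 5 highest by rho and 3 among the 5 highest over the 8 group means.

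Over the 12 root arrays alone the highest were LOC100813623 (r = 0.953), WRKY49 (0.936), WRKY39 (0.931), LOC100170751 (0.928) and LOC100795056 (0.926). WRKY49 and WRKY39 carry symbols of the WRKY transcription factor family. In CD roots these 5 were higher under low P by 1.46, 0.79, 0.67, 1.19 and 1.77 on the log2 scale, and in YH roots they differed by -0.39, -0.26, -0.21, -0.54 and -0.20. They were chosen by r with GA2OX2 over these arrays, so a rise in CD roots under low P follows from the choice. GA2OX1 had an r of 0.705, GA2OX8 of 0.642 and GASA26 of 0.749 over the root arrays. Over all 24 arrays the 5 root-ranked genes had an r of 0.957, 0.733, 0.848, 0.824 and 0.108. In YH leaves under normal P the means of WRKY49, WRKY39 and LOC100170751 were 8.54, 6.47 and 6.84, where that of GA2OX2 was 2.49. LOC100795056 had means of 1.75, 1.94 and 1.74 in the root groups other than CD low P, below the array medians. Those of LOC100813623 in the same groups were 2.50, 2.91 and 2.52, near or below the array medians. The lowest r over 24 arrays belonged to LOC100793646 (-0.978), LOC100807603 (-0.975) and LOC100815274 (-0.975), which were leaf-high.

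**Figure D5:**
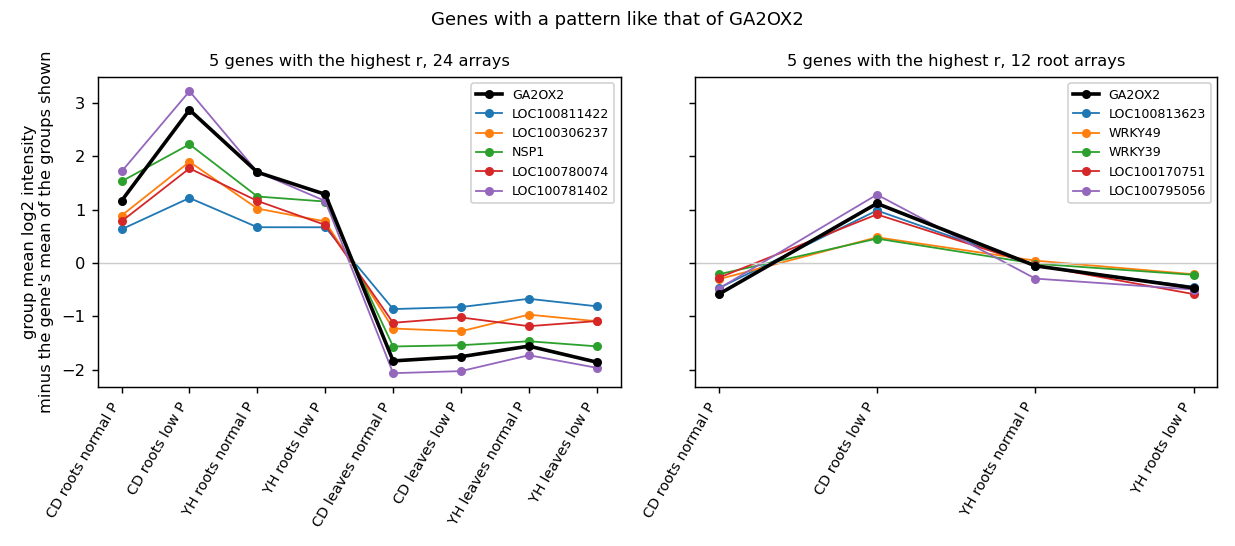
Group means of log2 intensity minus each gene's mean over the groups shown (vertical axis), for GA2OX2 (black) and the 5 genes with the highest r over 24 arrays (left) or over 12 root arrays (right). All lines peak in CD roots under low P, and the lines on the left drop in leaves. The genes were chosen by their r with GA2OX2, so the likeness of the lines follows from the choice.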

How the data were processed

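Values were the deposited linear intensities of 75990 probe sets on 24 arrays, with 0 missing values; the authors normalized them between arrays, by RMA according to their methods and by MAS5 according to the submitters' processing notes (version not given in the sources used here). They were taken to log2 without a filter. limma (version 3.58.1, R 4.3.3) was run on all 24 arrays with the 8 group means as coefficients, which gave 16 residual and 4.22 prior degrees of freedom. Every SE printed, also for GA2OX2, comes from this fit, with variances drawn towards a common value. The Benjamini-Hochberg adjustment ran over all probe sets, separately for 12 comparisons and 4 interaction terms. A call needed an adjusted p under 0.05 and a change of at least 2-fold. The methods name SAM, which was not run; limma was used in its place because it shares 1 variance estimate over all groups. With 3 arrays against 3 the smallest exact two-sided p is 0.1, and the number of arrays limits the precision.

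Gene names came from the platform's symbols: 32405 probe sets had 1 symbol, 1586 several and 41999 none. Only probe sets with 1 symbol entered the lists, which were made by symbol because the annotation gives no descriptions. The gene and the lists were chosen with earlier results of these data known. The rule was to name GA2OX2, all other 2-oxidases, and up to 4 called genes with the smallest p from each other gibberellin list and comparison. It also took in the genes with the 5 highest (24 or 12 arrays) or 3 lowest r. The 4 phosphate genes with the smallest p in CD roots were to be named too. The rule was not carried out in full. Of the phosphate genes only SPX3 and SPX8 are printed. Of the called root against leaf genes in the other gibberellin lists, only GA3OX3, GA20OX3 and GID1C2 are printed. RCAALPHA, IFS2, IRT and the uncalled GAI genes fall outside the rule and were named after their values were seen. More than 4 called GASA genes are printed for CD against YH leaves at each P level, which also goes beyond the rule.

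Within groups arrays correlated at r of 0.935 to 0.989. Replicate numbers are shared between groups in the labels, and all 3 same-number correlations of deviations from group means exceeded 0.1 in 5 of 12 comparisons, CD roots and YH roots under low against normal P among them. Alternatives were quantile normalization, median centring, log2 of intensity plus 8, a replicate block, leaving out the 33.3% dimmest probe sets, a fit of only the groups compared, and leaving out each array. On simulated data with changes added to CD root low P arrays, 38, 48, 50 and 48 of 50 were called at log2 changes of 1.5, 2, 3 and -2 among 75990 probe sets, with 2 false calls. For the difference of root responses between CD and YH, 25, 37, 49 and 43 of 50 were called, with 10 false calls. The simulation drew independent normal noise around 1 mean per probe set. It held no organ or accession differences and no correlation between arrays of the same replicate number, so its counts apply to that setting only.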

Additional observations from a re-analysis of the deposited data

How the results depend on the processing

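The GA2OX2 differences kept their sign under quantile normalization, median centring and log2 of intensity plus 8. The last setting brought the root excess over leaves to 1.84 and 3.33 in CD and to 2.18 and 1.95 in YH, under normal and low P. It also left 0 gibberellin genes called under low P in CD roots and 0 in YH leaves, from 1 each. A fit of only the groups compared left 0 in both as well, and a replicate block left 0 in YH leaves (GASA24, adjusted p = 0.07); the block changed no other count of calls by over 1.5 times. Leaving out each array gave GA2OX2 differences of -0.65 to -0.12 for low P in YH roots, -0.77 to -0.24 for CD against YH roots under normal P, 2.97 to 3.50 for YH roots against leaves under normal P, 1.82 to 2.36 for the difference of root responses, and -0.35 to 0.18 for root against leaf response in YH; each of these ends came from YH roots normal P replicates 1 and 2. Counts of called gibberellin genes were 0 to 1 for low P in CD leaves, 0 to 2 in YH leaves and 0 to 1 for the difference of root responses. The root excess of GA3OX3 in YH under normal P was not called without replicate 1 or 3 of either organ (1.53 to 1.76), and GA2OX5 was called lower in CD leaves under normal P without YH replicate 1 (-1.02). A set of 120 pairs of gene and comparison was followed through these settings, GA2OX2 left aside. It held every gibberellin gene called in a comparison, and 2-oxidases at an adjusted p under 0.05 from limma that were not called. Most pairs were root against leaf differences, many of them not printed here, so the counts say little of the low P calls. Of the 120, 101 did not change between called and not called whichever array was left out, and 0 changed sign in any setting. The call was lost in 24 with log2 of intensity plus 8, 7 in a fit of only the groups compared, 3 under quantile normalization, 1 under median centring and 1 with the replicate block.

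Low signal limits the leaf values of GA2OX2, which lay near the array medians, and 3 arrays per group limit all differences.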

Other observations

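In leaves, several GASA genes differed between the accessions at both P levels. GASA32 was higher in CD by 4.46 under normal P and 5.39 under low P (SE 0.360), GASA6 by 3.70 and 3.64 (SE 0.252), GASA10 by 3.14 and 3.10 (SE 0.291), GASA36 by 2.54 and 2.33 (SE 0.334) and GASA14 by 1.63 and 1.92 (SE 0.342), all called by limma. These 5 were the GASA genes called higher of 28 in each of both comparisons, and 1 was called lower in each: GASA24 under normal P (-1.09) and GASA22 under low P (-1.03). Of all probe sets 8.22% and 6.92% were called in these comparisons. In a fit of only the groups compared, GASA14 was not called under normal P (adjusted p = 0.0723, limma). The GASA24 call was lost without YH leaves normal P replicate 2 (difference -0.704, adjusted p = 0.0899, limma), and that of GASA22 without CD leaves low P replicate 1 (-0.929, under 2-fold).

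In roots GASA7 was higher in CD by 1.27 under normal P and 1.42 under low P (SE 0.264, adjusted p = 0.00402 and 0.00138, limma). GASA24 was the only gibberellin gene called under low P in YH leaves, where it read 2.86, 4.18 and 3.17 under normal P and 1.72, 1.63 and 2.30 under low P. Its fall of -1.52 (SE 0.289, adjusted p = 0.0342, limma) was not called without YH leaves normal P replicate 2 (-1.13, adjusted p = 0.265), and its adjusted p was over 0.05 when any of 7 other arrays was left out.

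Among synthesis genes, GA20OX3 was 1.54 higher in CD leaves than in YH leaves under low P (SE 0.356, adjusted p = 0.00461, limma), and with 8 units added to each intensity the difference was 0.79 and not called. GA3OX3 was lower in CD leaves under normal P (-1.99, SE 0.601, adjusted p = 0.0242), which was lost without YH leaves normal P replicate 2 (-1.31, adjusted p = 0.173), without CD leaves normal P replicate 1 (-1.86, adjusted p = 0.0739) or without replicate 3 of that group (-1.64, adjusted p = 0.105).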
